A study of Mus musculus with 15 samples.

Results

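The transcripts described here are those whose response to water restriction in the mouse kidney was not the same after 1 week as after 4 weeks. They were found as a difference of differences over all 15 kidney arrays of the series: the effect in the older mice (RES 4W minus CON 4W) minus the effect in the younger mice (RES 1W minus CON 1W). Probes were tested if their detection p was under 0.05 in at least 3 arrays, which left 19027 of 45281 probes, and a probe was called at an adjusted p under 0.05 in limma. In this way 111 probes were called, or 0.583% of those tested, of which 70 had a positive difference (0.368%) and 41 a negative one (0.215%). A positive difference means that restriction lowered the transcript more, or raised it less, in the younger mice than in the older mice. Values are log2 levels, and each gene stands for its tested probe of highest mean level, among probes with 1 gene symbol.

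All mice were male C57BL/6 mice on an AIN-93G diet, housed from the age of 3 weeks, right after weaning. RES 1W mice (n = 4) were given water during 15 min of each day over 1 week and were killed at the age of 4 weeks, beside CON 1W mice (n = 4) of that age with free access to water. RES 4W mice (n = 4) had the same restriction for 4 weeks and were killed at the age of 7 weeks, beside CON 4W mice (n = 3). The restricted mice had their last water a day before they were killed, the age and the length of the restriction rose together, and the arrays cover fewer mice per group than the study lists. By the paper's account, restricted mice also ate less over the first days and regained a normal intake after the first week. Lower food intake and lower water intake thus cannot be told apart in the effect at 1 week. Whole kidneys were hybridized on Illumina MouseWG-6 arrays, so that fewer cells of a type and less RNA per cell cannot be told apart.

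As background, the kidney of a weanling mouse is still growing. Its tubule cells divide, its collagen and laminin basement membranes are laid down around them, and the urine concentrating machinery matures. Dividing cells switch on a block of genes for DNA synthesis and then for mitosis, and this block is switched off as a tissue reaches its final cell number. Water shortage raises vasopressin, which puts the water channel aquaporin 2 into the collecting duct, and the stress hormones of the adrenal cortex, which drive amino acid breakdown and gluconeogenesis in the tubules. A difference of differences finds a gene when restriction moved it at one age and not at the other, or in opposite directions. It also finds a gene moved in the same direction by unlike amounts.

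One array stood apart and touched every result on the older mice. On the leading axis of a principal component analysis, which held 28.3% of the variance, RES 4W replicate 1 scored -11.9, whereas RES 4W replicates 2 to 4 scored between 38.6 and 39.5 and the other 11 arrays between -12.8 and -6.1. Its mean correlation was 0.978 with the other RES 4W arrays and 0.988 with the CON 4W arrays. Without it, 2851 probes, or 15% of those tested, were called in the difference of differences, and all 111 probes called with every array were called among them with the same sign. The main counts, and the genes named here whose class or call it changed, are therefore given with and without that array. Its column stands in the deposited table beside those of CON 4W replicates 2 and 3, while RES 4W replicates 2 to 4 stand in another set of 6 columns with CON 4W replicate 1 and RES 1W replicates 3 and 4. The labels give no reason for the difference. Whether the label of RES 4W replicate 1 is right was not tested, nor was which of the RES 4W arrays is typical, so every direction given here for the older mice rests on the group labels as they stand. Between 15295 and 17433 probes were detected per array. Of the tubule transcripts that mark a kidney, 7 of 8 proximal tubule markers and 8 of 8 collecting duct markers were tested. On every array their summed linear level was between 50800 and 62800 for the proximal tubule and between 4970 and 7010 for the collecting duct. Among the latter Atp6v1b1 was dim, detected in 2 of 3 CON 4W arrays.

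The 111 called probes fell into early, late and opposite responses. A probe was counted as early where the younger mice passed the test (adjusted p under 0.05, RES 1W against CON 1W) and the older mice did not, and as late where only the older mice did. There were 60 early probes, 46 late probes and 3 with both effects called in opposite directions. A further 2 were called at neither age alone, and 0 were called in the same direction at both ages. The estimates at the 2 ages had opposite signs in 53 of the 60 early probes and in 43 of the 46 late probes. This describes probes that were chosen by the difference between those estimates. The plot of the effect at 1 week against the effect at 4 weeks shows the early probes along the horizontal axis and the late probes along the vertical one. On its own, the comparison in the younger mice called 534 probes (2.81%), 263 of them lower (1.38%). That in the older mice called 1235 (6.49%), 545 of them lower (2.86%). With every array, most restriction responses at either age were thus not called different between the ages. The 1235 calls in the older mice depended on the fit and on single arrays: limma on those 7 arrays alone called 3 and the methods' t-test 0 after Benjamini-Hochberg adjustment (2994 unadjusted), and leaving out RES 4W replicate 2, 3 or 4 in turn left 165 to 198. A missed threshold at one age does not show that the gene did not respond there. Across the 19027 probes the effects at the 2 ages had a Pearson correlation of 0.1, and of 0.08 without RES 4W replicate 1, as a description across probes that are not independent.

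**Figure D1:**
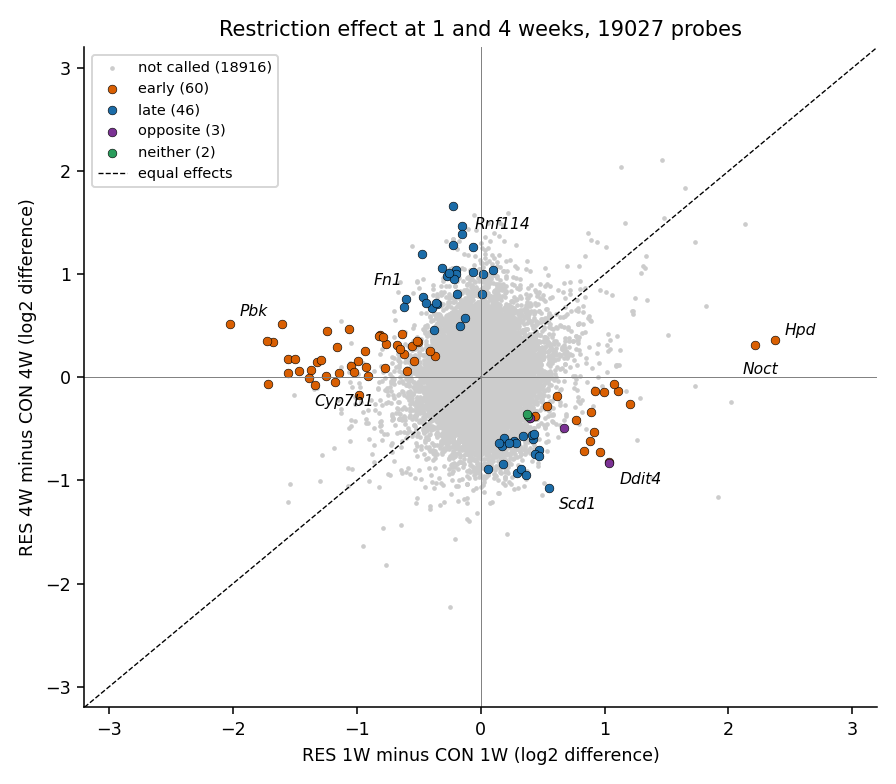
Restriction effect of each tested probe in the younger mice (horizontal axis, RES 1W minus CON 1W, log2 difference) and in the older mice (vertical axis, RES 4W minus CON 4W, log2 difference), with the dashed line marking equal effects. The 60 early probes lie left and right of the centre, the 46 late probes above and below it, and the 3 opposite probes at the lower right.

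Without RES 4W replicate 1 the balance of the classes turned over, with 212 early, 2305 late, 63 opposite and 254 probes called at neither age, and 17 in the same direction at both. The younger comparison then called 4.31% and the older one 24.1% of the tested probes. The older one called 4576 probes, among them the 2305 late ones, so that most of these 4576 were called different between the ages. Of the 60 early probes, 50 stayed early and 10 became opposite. Of the 46 late probes, 42 stayed late and 4 became opposite, while the 3 opposite probes remained so. The count of late responses thus hung on a single array, from 46 with it to 2305 without it. At the thresholds of the study's methods (an adjusted p below 0.01 with more than 1.5-fold change), 11 probes were called with every array, and 1278 without RES 4W replicate 1.

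The early falls were the largest block: 43 of the 60 early probes were lower in RES 1W than in CON 1W, with a median log2 difference of -1.02 in the younger mice and 0.18 in the older mice. Genes of the mitotic machinery made up the largest group among them. The mitosis list came from textbook knowledge but was chosen with earlier results of these data known. The paper names several of its members, such as Pbk, Cdc20 and Birc5, as higher in CON 1W on these arrays. The list is thus no independent evidence. Of the 34 genes listed, 20 were tested. Of these, 12 were called higher in the difference of differences and 0 lower, beside 0.314% of all genes called higher. Their median difference of differences was 1.06, beside -0.017 over all genes. In the younger mice 16 of the 20 were lower under restriction (median -0.86), beside 1.61% of all genes lower and 1.79% higher. In the older mice 1 was higher, Kif23, a motor protein of the dividing cell's midzone, and 0 were lower (median 0.15), beside 2.68% of all genes higher and 3.15% lower. With RES 4W replicate 1 left out, 15 of the 20 were called higher, with a median of 1.11, where 5.7% of all genes were called higher.

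Pbk, a kinase of dividing cells, showed the largest difference of any called gene. Its log2 level was 5.81, 6.76, 5.51 and 6.29 in RES 1W, against 8.16, 7.87, 8.4 and 8.05 in CON 1W. The older groups were at 6.16, 6.01, 5.86 and 5.56 in RES 4W, against 5.15, 5.45 and 5.56 in CON 4W. All 4 RES 1W arrays lay below all CON 1W arrays by more than 1 log2 unit, whereas in the older mice the restricted arrays lay at or just above the control arrays. The effect was -2.03 ± 0.22 (SE, adjusted p = 0.0001) in the younger mice and 0.51 ± 0.23 (SE, adjusted p = 0.18) in the older mice, and their difference was 2.54 ± 0.32 (SE, adjusted p = 0.0037).

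Cdc20, which activates the ubiquitin ligase that starts anaphase, followed the same course. It stood at 6.36, 6.96, 6.14 and 6.8 in RES 1W, against 8.5, 8.12, 8.49 and 8.03 in CON 1W. At the later age it stood at 6.27, 6.42, 6.18 and 5.83 in RES 4W, against 5.8, 5.92 and 5.74 in CON 4W. The groups were apart by over a log2 unit in the younger mice and overlapped in the older ones, and the difference of differences was 2.07 ± 0.26 (SE, adjusted p = 0.0037). A second of its 4 tested probes was called in the same direction (1.26, adjusted p = 0.033).

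Birc5, or survivin, a subunit of the chromosomal passenger complex, measured 5.54, 6.28, 5.4 and 5.86 in RES 1W, against 7.45, 7.12, 7.81 and 7.42 in CON 1W. At 4 weeks its values were 5.94, 5.84, 5.57 and 5.68 in RES 4W, against 5.32, 5.29 and 5.63 in CON 4W. The younger groups did not overlap, and the difference of differences was 2.03 ± 0.26 (SE, adjusted p = 0.0041). Each of the 3 tested probes of this gene was called, at 2.03, 1.69 and 1.47.

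Cdkn3, which removes an activating phosphate from cyclin-dependent kinases, had levels of 5.55, 5.65, 5.22 and 5.48 in RES 1W, against 7.31, 6.98, 7.44 and 7.04 in CON 1W. The older mice gave 5.47, 5.34, 5.24 and 5.47 in RES 4W, against 5.39, 5.61 and 5.33 in CON 4W. Here the older groups lay within 0.4 log2 units of each other on every array. The fall in RES 1W was -1.72 ± 0.12 (SE, adjusted p = 2.4e-06), and the difference of differences, 1.65 ± 0.18 (SE, adjusted p = 0.0021), had the smallest adjusted p of all called genes.

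Prc1, which bundles the microtubules of the central spindle, was at 6.05, 6.98, 5.89 and 6.16 in RES 1W, against 8.21, 7.76, 8.07 and 7.47 in CON 1W. The levels of the older mice were 6.43, 5.96, 5.79 and 5.56 in RES 4W, against 5.36, 5.56 and 5.33 in CON 4W, the restricted arrays at or slightly above the controls. Its difference of differences was 2.12 ± 0.33 (SE, adjusted p = 0.012). Without RES 4W replicate 1 the difference of differences was 2.45 for Pbk, 2.04 for Cdc20, 1.96 for Birc5, 1.62 for Cdkn3 and 1.96 for Prc1, all called. The kinases Plk1 and Aurka, the checkpoint kinase Bub1b, the mitotic entry factor Cdca3, the passenger subunit Cdca8, the centromere histone Cenpa and the spindle motor Kif22 were also called, with differences of differences between 0.86 and 1.53. The other tested probe of Bub1b did not share the sign of its difference. The mitosis genes that were tested and not called were Cdk1, Mad2l1, Ttk, Top2a, Kif23, Nusap1, Ncaph and Foxm1, of which Cdk1, the kinase that drives entry into mitosis, missed the threshold narrowly (1.2, adjusted p = 0.056).

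**Figure D2:**
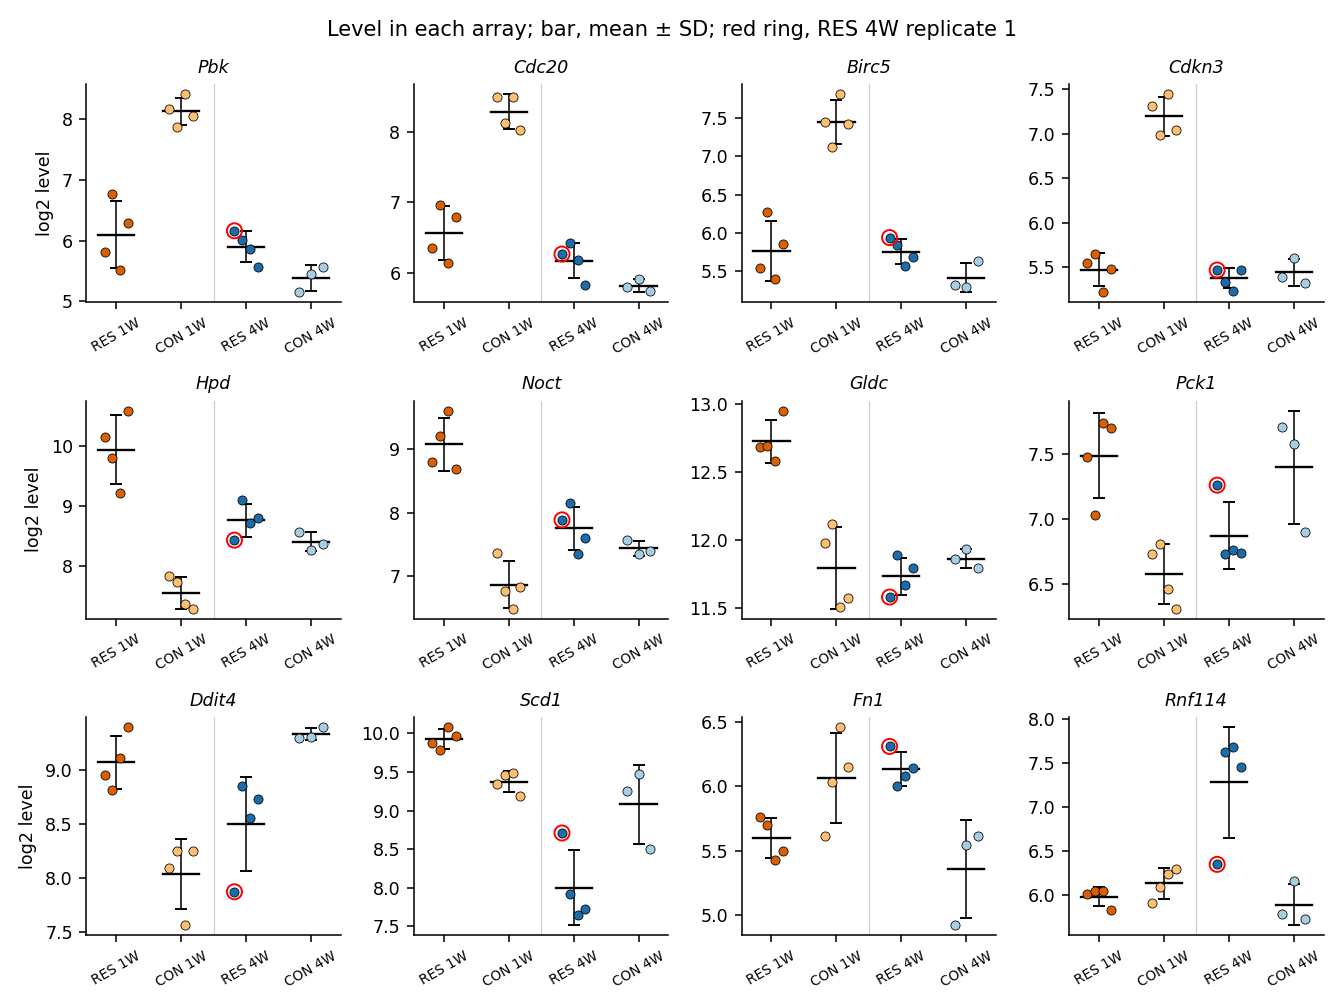
Log2 level (vertical axis) of 12 called genes in each array of the 4 groups (horizontal axis); points are arrays, bars the mean ± SD, and the red ring RES 4W replicate 1. The top row shows cell division genes with RES 1W far below CON 1W and the older groups close together, the middle row early rises, and the bottom row Ddit4 and 3 late responses.

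A known pair of motifs was looked for in the promoters of these genes, and some are printed here since the mitosis list is the group that the early falls turn on. In cell cycle genes the CHR element (TTTGAA on either strand) and the CCAAT box are sites through which transcription is held down in resting cells and raised in dividing ones. In the RefSeq promoter windows (build GRCm38.p6, 250 bases before to 50 after the start, the first window listed for each gene), 18 of the 20 tested mitosis genes had an entry. Of these, 14 held both motifs, or 77.8%, whereas 7.12% of all 27025 windows did. Both strands were searched, no match overlapped another in the windows shown, and a match describes the sequence only. Windows are shown for 3 of the early falls, with the letters of every CHR and CCAAT match in capitals and the 5′ end first. They lie at chr4:118437294-118437593, minus strand (Cdc20), chr7:80294201-80294500, plus strand (Prc1) and chr14:46760291-46760590, plus strand (Cdkn3).
Cdc20: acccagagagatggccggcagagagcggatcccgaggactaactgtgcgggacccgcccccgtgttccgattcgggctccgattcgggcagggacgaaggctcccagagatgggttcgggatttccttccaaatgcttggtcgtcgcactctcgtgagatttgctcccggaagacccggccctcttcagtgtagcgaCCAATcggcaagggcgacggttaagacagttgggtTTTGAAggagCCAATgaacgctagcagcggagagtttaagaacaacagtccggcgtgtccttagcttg
Prc1: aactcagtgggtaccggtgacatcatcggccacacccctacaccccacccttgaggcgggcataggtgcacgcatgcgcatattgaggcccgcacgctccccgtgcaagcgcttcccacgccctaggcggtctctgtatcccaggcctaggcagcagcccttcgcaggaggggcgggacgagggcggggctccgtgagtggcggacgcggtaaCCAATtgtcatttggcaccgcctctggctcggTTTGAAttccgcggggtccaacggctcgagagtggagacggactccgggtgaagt
Cdkn3: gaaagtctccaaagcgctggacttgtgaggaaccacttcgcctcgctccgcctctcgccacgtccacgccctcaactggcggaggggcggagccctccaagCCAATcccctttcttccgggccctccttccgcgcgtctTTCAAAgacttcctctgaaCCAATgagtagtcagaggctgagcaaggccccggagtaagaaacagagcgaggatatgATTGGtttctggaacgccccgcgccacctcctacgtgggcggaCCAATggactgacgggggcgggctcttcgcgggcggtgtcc
In Prc1 the CCAAT box lies 37 bases and the CHR element 5 bases before the annotated start. Cdc20 has its CHR element 18 bases before the start, between CCAAT boxes at 53 and 8 bases before it, and Cdkn3 has 4 CCAAT matches and a CHR match 111 bases before the start.

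DNA synthesis genes moved less. Of 32 replication genes listed, 25 were tested, and 2 were called higher in the difference of differences (median 0.32), beside 0.314% of all genes: Mcm5, a subunit of the replicative helicase (1.06, adjusted p = 0.038), and Rrm2, the regulated subunit of ribonucleotide reductase (1.07, adjusted p = 0.034). In the younger mice 8 of the 25 were lower under restriction, beside 1.61% of all genes, and in the older mice 0 were, beside 3.15%. Mcm5 measured 7.31, 7.92, 7.17 and 7.7 in RES 1W, against 8.29, 8.24, 8.21 and 7.91 in CON 1W. Older mice measured 7.34, 6.96, 7.04 and 7.15 in RES 4W, against 6.72, 6.66 and 6.74 in CON 4W. The restricted arrays were the lower ones at 1 week, with a small overlap, and the higher ones at 4 weeks, with none. When RES 4W replicate 1 was left out, 5 replication genes were called higher, where 5.7% of all genes were, with Chaf1a, Chaf1b and Mcm4 in addition to these.

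Histone genes of the H2A family were no list fixed for the tests and were looked at after their values were seen. Of 12 tested genes with an H2ac symbol, 5 were called early falls by their brightest probe, namely H2ac7, H2ac11, H2ac12, H2ac15 and H2ac24. The other 7 were not called in the difference of differences. Over all 10838 genes 27 were early falls by their brightest probe. The genes of this family are close copies of each other, so that a probe can read several of them. H2ac15 was at 5.71, 6.85, 6.33 and 6.34 in RES 1W, against 7.75, 7.44, 8.03 and 8.01 in CON 1W. At 4 weeks of restriction it was at 6.17, 6.74, 6.44 and 6.52 in RES 4W, against 6.07, 6.21 and 6.57 in CON 4W. The separation seen in the younger mice was lost in the older ones, and the difference of differences was 1.68 ± 0.3 (SE, adjusted p = 0.028).

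The study's own panel of cell cycle genes, which was chosen on these samples and is no independent evidence, had 13 tested members. Of these, 6 were called higher in the difference of differences and 0 lower, with a median of 1.06, beside 0.314% of all genes called higher. In the younger mice 12 were lower and 1 higher, beside 1.61% and 1.79% of all genes, and in the older mice 2 were lower, beside 3.15%. Leaving out RES 4W replicate 1, 7 were called higher and 1 lower, where 5.7% and 7.52% of all genes were. Its members Id1 and Id2, inhibitors of differentiation factors, were lower under restriction at both ages (for Id1, -0.90 in RES 1W and -1.01 in RES 4W), and were not called different between the ages (-0.11 for Id1 and 0.14 for Id2).

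Many of the early falls were dim in the older controls, with less room left there than they had fallen in the younger mice. The median change with age alone (CON 4W minus CON 1W) of the 43 early falls was -1.26, and 38 of them were called lower with age, beside 1.79% of all probes, and 2 higher, beside 1.18%, a comparison that shares CON 1W with the restriction effect. The floor of measurement in CON 4W, the mean over its arrays of the lowest level among detected probes, was 4.88. A probe was counted as too dim in CON 4W if no CON 4W array detected it, or if its CON 4W mean lay above the floor by less than the size of its fall in RES 1W. By this rule 22 of the 43 early falls, or 17 genes, were too dim, 7 of these being undetected in every CON 4W array. Among the other 220 probes that fell in RES 1W, 44 were too dim, and among all 263 falls in RES 1W there were 66.

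Pbk had 0.51 log2 units left above the floor in CON 4W, against a fall of 2.03 in the younger mice. Cdc20 had 0.94, Birc5 0.53, Prc1 0.54, Cdkn3 0.56, Plk1 0.46 and Rrm2 0.49, each less than its fall. For these genes the arrays show that no fall was called in the older mice, but the size of the difference has no full measure, since a fall of the same size from the CON 4W level would have ended below the floor. Aurka and Bub1b were detected in 1 of the 3 CON 4W arrays each. The plot of fall size against room shows these genes under the dashed line.

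**Figure D3:**
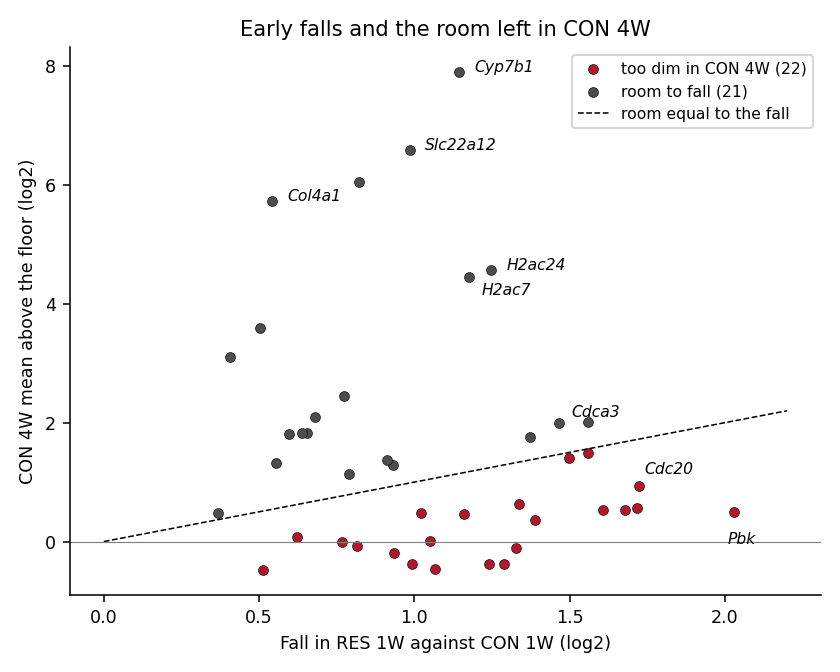
Room left above the floor in CON 4W (vertical axis, CON 4W mean minus 4.88, log2) against the size of the fall in RES 1W against CON 1W (horizontal axis, log2) for the 43 early falls; each point is a probe, and the dashed line marks room equal to the fall. The 22 probes that were too dim lie on or below the line or were undetected, and Cyp7b1, Slc22a12 and Col4a1 are far above it.

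The remaining 21 early falls, in 18 named genes and 2 unnamed probes, had room to fall at 4 weeks and were not called lower there. Their median effect was -0.79 in the younger mice and 0.16 in the older mice, against -1.27 and 0.24 for the 22 that were too dim. Cell division genes were present here as well: Cdca3, Cdca8, Kif22, Cenpa, Mcm5 and the histones H2ac7 and H2ac24 by their brightest probes, and Mcm6, a helicase subunit, by a dimmer probe (0.86, adjusted p = 0.036, against 0.72, adjusted p = 0.12, in its brightest). For H2ac24 the fall was 1.25 with 4.58 log2 units of room, and its effect in the older mice was 0.01. A fall that was called in the younger and not in the older mice was thus also found in probes that were not too dim by this rule. The median change with age alone of the 21 probes was -1.12. Some had little more room than their fall, such as Kif22 (1.3 against 0.93).

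Genes with the most room were not cell cycle genes. Cyp7b1, an oxysterol hydroxylase that is more abundant in the kidney of adult males, was at 10.04, 10.06, 10.2 and 9.9 in RES 1W, against 10.93, 10.9, 11.21 and 11.73 in CON 1W. After 4 weeks the levels were 12.92, 12.89, 12.8 and 12.65 in RES 4W, against 12.92, 12.65 and 12.77 in CON 4W. Restricted young mice were lower on every array, whereas the older groups overlapped at a higher level. The effect of -1.14 ± 0.15 (SE, adjusted p = 0.00068) in the younger mice was followed by 0.04 in the older mice, with a 95% interval of -0.31 to 0.39. Its difference of differences was 1.18 ± 0.22 (SE, adjusted p = 0.033), and with age alone it was higher in CON 4W than in CON 1W by 1.58.

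Slc22a12, the urate transporter of the proximal tubule, measured 10.01, 10.12, 10.12 and 9.88 in RES 1W, against 10.91, 11.16, 11.04 and 10.96 in CON 1W. The older mice had 11.3, 11.42, 11.39 and 11.09 in RES 4W, against 11.4, 11.34 and 11.68 in CON 4W. All RES 1W arrays were below all CON 1W arrays, and the older groups overlapped. The effect of -0.99 ± 0.11 (SE, adjusted p = 0.00012) at 1 week stood against -0.17 at 4 weeks (95% interval -0.42 to 0.07), and the difference was 0.81 ± 0.16 (SE, adjusted p = 0.035). Of 17 proximal tubule transporters tested it was the 1 called, and 0 were called lower, beside 0.314% of all genes called higher. Without RES 4W replicate 1, 3 were called higher and 2 lower, where 5.7% and 7.52% of all genes were.

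Collagens and other matrix genes supplied a few members of both classes. Col4a1, a chain of the main collagen of basement membranes, was 11.08, 10.94, 11.15 and 10.98 in RES 1W, against 11.46, 11.67, 11.62 and 11.57 in CON 1W. The older groups were at 10.62, 10.85, 10.82 and 10.76 in RES 4W, against 10.7, 10.47 and 10.65 in CON 4W. The younger groups were apart on every array and the older ones overlapped, with a difference of differences of 0.7 ± 0.14 (SE, adjusted p = 0.036). It was the 1 basement membrane gene called among 18 tested (median 0.3), beside 0.314% of all genes called higher. In RES 1W 3 of the 18 were lower, beside 1.61% of all genes. Without RES 4W replicate 1, 8 of the 18 were called higher and 0 lower (median 0.41), where 5.7% of all genes were called higher: Col4a1, Col4a2, Col4a5, Lama5, Nid1, Hspg2, Col15a1 and Sparc.

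Among 20 interstitial matrix genes 2 were called higher and 0 lower (median 0.35), beside 0.314% of all genes called higher. Without RES 4W replicate 1, 4 were called higher and 0 lower, where 5.7% of all genes were called higher. Of the 2 called with every array, Col5a1, a collagen that regulates fibril width, was an early fall. Its difference of differences was 0.66 ± 0.14 (SE, adjusted p = 0.045). The other was Fn1, fibronectin, a late rise. Its level was 5.76, 5.7, 5.43 and 5.5 in RES 1W, against 5.61, 6.03, 6.46 and 6.15 in CON 1W. At 4 weeks its values were 6.31, 6.0, 6.08 and 6.14 in RES 4W, against 4.92, 5.54 and 5.61 in CON 4W. The older restricted mice lay above all their controls, while the younger ones overlapped with theirs. The effect was -0.47 ± 0.17 (SE, adjusted p = 0.2) at 1 week and 0.78 ± 0.19 (SE, adjusted p = 0.027) at 4 weeks, with a difference of 1.24 ± 0.26 (SE, adjusted p = 0.038).

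The early rises were fewer: 17 of the 60 early probes, with a median log2 difference of 0.93 in the younger mice and -0.28 in the older mice. Hpd, the dioxygenase that carries out an early step of tyrosine breakdown, rose the most. It stood at 10.14, 9.8, 9.22 and 10.58 in RES 1W, against 7.83, 7.74, 7.37 and 7.29 in CON 1W. The older mice had 8.43, 9.1, 8.72 and 8.8 in RES 4W, against 8.57, 8.26 and 8.37 in CON 4W. Every RES 1W array was above every CON 1W array by over 1 log2 unit, and in the older mice the groups overlapped. The rise was 2.38 ± 0.23 (SE, adjusted p = 3.8e-05) in the younger mice, a fold of 5.19, and the estimate in the older mice was 0.36 ± 0.25 (SE, adjusted p = 0.38), with a difference of -2.01 ± 0.33 (SE, adjusted p = 0.019).

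Noct, a clock-controlled phosphatase also known as Nocturnin, behaved in the same way. Its levels were 8.8, 9.22, 9.61 and 8.7 in RES 1W, against 7.37, 6.77, 6.49 and 6.84 in CON 1W. At 4 weeks they were 7.89, 8.16, 7.36 and 7.61 in RES 4W, against 7.57, 7.35 and 7.4 in CON 4W. The younger groups were widely apart, and the older ones overlapped. Its rise of 2.21 ± 0.21 (SE, adjusted p = 4.1e-05) in the younger mice stood against 0.32 ± 0.23 (SE, adjusted p = 0.42) in the older ones, and the difference was -1.9 ± 0.32 (SE, adjusted p = 0.019). Of 12 circadian clock genes tested, 0 were called in the difference of differences. Without RES 4W replicate 1 there were 1 higher and 4 lower, where 5.7% and 7.52% of all genes were.

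Enzymes of amino acid breakdown supplied 3 of the early rises out of 13 tested, with a list median of -0.45 and 0 called higher, where 0.258% of all genes were called lower. Besides Hpd they were Gldc, the decarboxylating subunit of the glycine cleavage system, and Kynu, the kynureninase of tryptophan breakdown (-1.14, adjusted p = 0.038). Gldc had levels of 12.68, 12.69, 12.58 and 12.95 in RES 1W, against 11.98, 12.12, 11.51 and 11.57 in CON 1W. The levels of the older mice were 11.58, 11.89, 11.67 and 11.79 in RES 4W, against 11.86, 11.93 and 11.79 in CON 4W. Restricted young mice were higher on every array and the older groups overlapped, and the difference of differences was -1.06 ± 0.2 (SE, adjusted p = 0.033). When RES 4W replicate 1 was left out, 5 of the 13 were called lower and 1, Aass, higher. Of all genes 7.52% were then called lower and 5.7% higher.

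Pck1, the rate-setting enzyme of gluconeogenesis, measured 7.48, 7.03, 7.74 and 7.7 in RES 1W, against 6.73, 6.81, 6.46 and 6.31 in CON 1W. Older mice measured 7.26, 6.73, 6.76 and 6.74 in RES 4W, against 7.71, 7.58 and 6.9 in CON 4W. The young restricted mice were above all their controls, while RES 4W replicates 2 to 4 were below all the CON 4W arrays and replicate 1 was within them. The effect was 0.91 ± 0.2 (SE, adjusted p = 0.017) at 1 week and -0.53 ± 0.21 (SE, adjusted p = 0.13) at 4 weeks, with a difference of -1.44 ± 0.29 (SE, adjusted p = 0.036). Without RES 4W replicate 1 the fall in the older mice passed the test (-0.66 ± 0.21, adjusted p = 0.033), so that Pck1 was then counted as opposite.

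Aqp1, the water channel of the proximal tubule and thin limb, was 13.08, 12.82, 12.98 and 13.23 in RES 1W, against 12.63, 12.58, 12.48 and 12.3 in CON 1W. The older mice had 12.91, 12.51, 12.54 and 12.56 in RES 4W, against 12.93, 12.96 and 12.83 in CON 4W. It was higher on every RES 1W array than on any CON 1W array, and in the older mice all restricted arrays but replicate 1 were below the controls. The difference of differences was -0.81 ± 0.17 (SE, adjusted p = 0.047), and without RES 4W replicate 1 the late fall also passed the test (-0.37 ± 0.12, adjusted p = 0.031). It was the 1 gene called lower among 13 of the aquaporin and vasopressin list, and 0 were called higher, beside 0.258% of all genes called lower. Without RES 4W replicate 1 there were 2 lower and 1 higher, where 7.52% and 5.7% of all genes were. Aqp2, the vasopressin-regulated channel of the collecting duct, rose at both ages (1.46 ± 0.23 in RES 1W and 2.11 ± 0.25 in RES 4W) and was not called different between them, at 0.64 ± 0.34 (SE, adjusted p = 0.32), with every array, though it was without RES 4W replicate 1 (0.93, adjusted p = 0.011).

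Gadd45g, a stress-inducible inhibitor of growth, and Gsta2, a glutathione transferase, were further early rises. Gadd45g measured 11.13, 11.74, 12.17 and 11.98 in RES 1W, against 10.86, 10.72, 10.35 and 11.24 in CON 1W. After 4 weeks the levels were 10.63, 11.35, 11.41 and 10.73 in RES 4W, against 11.63, 11.7 and 11.93 in CON 4W. The younger groups overlapped at 1 array, and all RES 4W arrays were below the CON 4W arrays, which did not pass the test on its own (-0.72, adjusted p = 0.087). Its difference of differences was -1.68 ± 0.34 (SE, adjusted p = 0.038) and that of Gsta2 -1.49 ± 0.26 (SE, adjusted p = 0.025). When RES 4W replicate 1 was left out, Gsta2 also had a called fall in the older mice (-0.76 ± 0.18, adjusted p = 0.0056), which placed it among the opposite responses.

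Responses with both effects called in opposite directions were rare, although most early and late probes had estimates of opposite sign. Of the 3 probes, 2 carried a gene symbol, and Ddit4 was the larger. Ddit4, also known as REDD1, is induced by stress and glucocorticoids and restrains growth signalling through mTOR. Its level was 8.96, 8.82, 9.11 and 9.4 in RES 1W, against 8.09, 8.25, 7.56 and 8.25 in CON 1W. The older groups were at 7.87, 8.85, 8.56 and 8.73 in RES 4W, against 9.3, 9.31 and 9.4 in CON 4W. Restriction was on the high side in every young array and on the low side in every older array, with no overlap at either age. The effect was 1.04 ± 0.2 (SE, adjusted p = 0.0082) at 1 week and -0.83 ± 0.21 (SE, adjusted p = 0.035) at 4 weeks, and the difference was -1.87 ± 0.29 (SE, adjusted p = 0.012). RES 4W replicate 1 was the lowest of its group, and without it the late fall was smaller but was still called (-0.62 ± 0.17, adjusted p = 0.017).

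Usb1, which trims the end of the U6 spliceosomal RNA, had smaller opposite effects. It was 9.23, 9.15, 9.24 and 9.14 in RES 1W, against 8.77, 8.83, 8.85 and 8.72 in CON 1W. At 4 weeks its values were 9.05, 8.67, 8.67 and 8.74 in RES 4W, against 9.0, 9.31 and 9.24 in CON 4W. The younger groups did not overlap and the older ones did, through RES 4W replicate 1. The effects were 0.4 ± 0.1 (SE, adjusted p = 0.05), which lies just under the threshold before rounding, at 1 week and -0.4 ± 0.11 (SE, adjusted p = 0.044) at 4 weeks. A second tested probe of Usb1 did not share the sign of the difference.

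Ddit4 was 1 of 16 glucocorticoid response genes tested and the 1 called lower in the difference of differences, beside 0.258% of all genes called lower. The list median was -0.36. Without RES 4W replicate 1 there were 2 lower and 0 higher, where 7.52% and 5.7% of all genes were. In the younger mice 7 of the 16 were higher under restriction and 0 lower, beside 1.79% and 1.61% of all genes, and in the older mice 5 were higher and 1, Ddit4, lower, beside 2.68% and 3.15%. Sgk1 and Per1, both direct targets of the hormone receptor, rose in RES 1W (1.51 for Sgk1 and 1.04 for Per1), but their differences of differences of -1.10 (adjusted p = 0.14) for Sgk1 and -0.76 (adjusted p = 0.2) for Per1 were not called. Tsc22d3, another target, was not called with every array and was called without RES 4W replicate 1 (-1.09, adjusted p = 0.021, against -1.06, adjusted p = 0.079, with every array).

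Ghr, the growth hormone receptor, was called in the difference of differences without passing at either age. It measured 12.45, 12.51, 12.61 and 12.35 in RES 1W, against 12.13, 12.08, 12.18 and 12.0 in CON 1W. The levels of the older mice were 12.27, 11.88, 12.05 and 11.89 in RES 4W, against 12.42, 12.3 and 12.46 in CON 4W. The restricted arrays were above their controls in the younger mice and below them in the older ones, with no overlap at either age. The effects were 0.38 ± 0.1 (SE, adjusted p = 0.058) at 1 week and -0.37 ± 0.11 (SE, adjusted p = 0.054) at 4 weeks, and the difference was -0.76 ± 0.15 (SE, adjusted p = 0.036). Neither of the other tested probes of Ghr shared this sign, and the mean of its probes gave 0.09. Both effects passed the test without RES 4W replicate 1, at 0.38 ± 0.09 (adjusted p = 0.021) at 1 week and -0.45 ± 0.1 (adjusted p = 0.0045) at 4 weeks, and Ghr was then counted as opposite.

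The late responses comprised 27 rises, with a median of 0.98 in the older mice and -0.22 in the younger mice, and 19 falls, with medians of -0.67 and 0.32. Scd1, the desaturase that makes monounsaturated fatty acids, had the largest difference among the named late falls. Its level was 9.88, 9.78, 10.08 and 9.96 in RES 1W, against 9.35, 9.46, 9.49 and 9.19 in CON 1W. Older mice measured 8.71, 7.92, 7.65 and 7.73 in RES 4W, against 9.26, 9.48 and 8.5 in CON 4W. Restricted mice were above all controls at 1 week, which did not pass the test on its own, and at 4 weeks RES 4W replicates 2 to 4 were below all controls while replicate 1 was not. The effects were 0.55 ± 0.22 (SE, adjusted p = 0.23) at 1 week and -1.08 ± 0.23 (SE, adjusted p = 0.02) at 4 weeks, and the difference was -1.63 ± 0.32 (SE, adjusted p = 0.035).

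Tob2, an antiproliferative factor that recruits RNA deadenylases, was a further late fall. It stood at 8.07, 8.0, 8.26 and 7.93 in RES 1W, against 7.82, 7.87, 7.22 and 7.46 in CON 1W. After 4 weeks the levels were 7.49, 8.12, 7.71 and 7.65 in RES 4W, against 8.56, 8.15 and 8.8 in CON 4W. The direction turned between the ages without overlap in either, and the difference was -1.24 ± 0.25 (SE, adjusted p = 0.038). The zinc transporter Slc30a6 and the Y-linked translation factor subunit Eif2s3y were also late falls, at -1.31 ± 0.28 and -1.21 ± 0.23 (SE). Eif2s3y was dim, detected in 1 of 4 RES 4W arrays and in 3 of 3 CON 4W arrays, with means of 4.75 and 5.64. Of the 19 late falls, 8 were too dim in CON 1W by the same rule turned round (floor 4.85), so that a fall of that size could not have been measured in the younger mice.

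Rnf114, a ubiquitin ligase, had the largest difference among late rises read from the brightest probe of the gene. It measured 6.01, 6.05, 6.05 and 5.83 in RES 1W, against 5.91, 6.09, 6.24 and 6.3 in CON 1W. The older groups were at 6.35, 7.63, 7.68 and 7.46 in RES 4W, against 5.79, 6.16 and 5.73 in CON 4W. RES 4W replicates 2 to 4 were over a log2 unit above every other array of the series, and replicate 1 was slightly above the controls. The difference of differences was 1.54 ± 0.33 (SE, adjusted p = 0.044) and 1.85 ± 0.18 without replicate 1. G6pc3, the ubiquitous glucose-6-phosphatase, gave 8.16, 8.6, 8.65 and 8.59 in RES 4W, against 7.48, 7.35 and 7.67 in CON 4W, with no overlap, and a difference of differences of 1.2 ± 0.21 (SE, adjusted p = 0.028).

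Mdk, midkine, a growth factor of the developing kidney, rose late and had a negative estimate early. Its level was 8.33, 8.25, 7.6 and 8.26 in RES 1W, against 8.91, 8.66, 8.59 and 8.76 in CON 1W. At 4 weeks its values were 7.62, 8.34, 8.23 and 7.94 in RES 4W, against 7.52, 7.13 and 7.4 in CON 4W. Both ages were without overlap, in opposite directions, and the difference was 1.3 ± 0.26 (SE, adjusted p = 0.036). Of the 2 other tested probes of Mdk, 1 shared the sign of this difference and 0 were called with that sign. The early difference missed the test with every array, at -0.62 ± 0.17 (SE, adjusted p = 0.073), and passed it without RES 4W replicate 1, which placed Mdk among the opposite responses.

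Late rises often came from a probe that was not the brightest of its gene. Of the 38 late probes with 1 symbol, 20 were not the brightest, and for 0 of these 20 was the brightest probe called as well. Of the 20, 16 had a positive difference, with a median of 1.26 in the called probe and 0.06 in the brightest one. For Ccnd3, a G1 cyclin, the called probe gave 1.88 at a mean level of 6.08 and the brightest 0.08 at 10.36. For Rab7, a late endosome GTPase, the values were 1.62 and -0.19. These 2 genes were chosen as examples after their values were seen. Among the early probes 15 of 56 were not the brightest, and for 13 of the 15 the brightest probe had the same sign. Probes of a gene can read different transcript ends or splice forms, and whether the late rises are of particular forms was not tested.

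The study's panel of cell adhesion and basement membrane network genes at 4 weeks, chosen on these samples and no independent evidence either, had 12 tested members. With every array 0 of them were called in the difference of differences (median -0.6). In RES 4W 6 were lower and 0 higher than in CON 4W, beside 3.15% and 2.68% of all genes. In RES 1W 0 were called, beside 1.61% of all genes lower and 1.79% higher. Without RES 4W replicate 1, 8 were called lower and 1 higher in the difference of differences (median -0.7), where 7.52% of all genes were called lower. Ctnnb1, or beta-catenin, which joins cadherins to the cytoskeleton, was called lower without that array. It was 8.75, 8.9, 8.52 and 8.75 in RES 1W, against 8.62, 8.38, 8.59 and 8.57 in CON 1W. The levels of the older mice were 8.93, 7.57, 7.44 and 7.45 in RES 4W, against 8.92, 8.67 and 8.92 in CON 4W. Replicate 1 was level with the controls and the other 3 restricted arrays were over 1 log2 unit lower. The difference of differences was -1.18 ± 0.36 (SE, adjusted p = 0.11) with that array and -1.54 ± 0.16 (SE, adjusted p = 8.2e-05) without it.

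Cdh1, the epithelial cadherin, Itgb5, an integrin chain, Actr3, a subunit of the actin-branching complex, and Rab5c, an early endosome GTPase, likewise had RES 4W replicate 1 nearest to the controls and the other 3 restricted arrays below all of them. Their differences of differences were -1.06 ± 0.31, -0.75 ± 0.28, -1.06 ± 0.26 and -0.66 ± 0.24 (SE) with every array, none of them called, and -1.3 ± 0.24, -1.01 ± 0.16, -1.28 ± 0.17 and -0.88 ± 0.15 without RES 4W replicate 1, all of them called. In the other direction Actn4, an actin crosslinker, was called higher without that array (0.93, adjusted p = 0.0019).

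Other genes were not called with every array and were called without RES 4W replicate 1. Slc5a2, the glucose carrier of the early proximal tubule, came close with every array: it was 9.47, 9.45, 9.47 and 9.4 in RES 1W, against 9.3, 9.27, 9.75 and 9.73 in CON 1W. Older mice measured 9.43, 10.06, 9.98 and 10.22 in RES 4W, against 8.94, 9.06 and 8.89 in CON 4W. The older restricted mice lay above all their controls and the younger groups overlapped, with a difference of differences of 1.03 ± 0.23 (SE, adjusted p = 0.051) and of 1.19 ± 0.18 without replicate 1, and it was also called without CON 1W replicate 1 and in 6 of 12 other settings. Cyp24a1, the vitamin D 24-hydroxylase, rose early, by 2.02 ± 0.42 (SE, adjusted p = 0.015), but its RES 4W arrays ran from 7.05 to 9.97 and the difference of -2.26 ± 0.62 (SE, adjusted p = 0.086) was called without replicate 1, the highest of them, and not with every array. Hspd1, the mitochondrial chaperonin, had a difference of -1.3 ± 0.41 (SE, adjusted p = 0.12) with replicate 1 and -1.71 ± 0.19 (SE, adjusted p = 0.00013) without it.

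**Figure D4:**
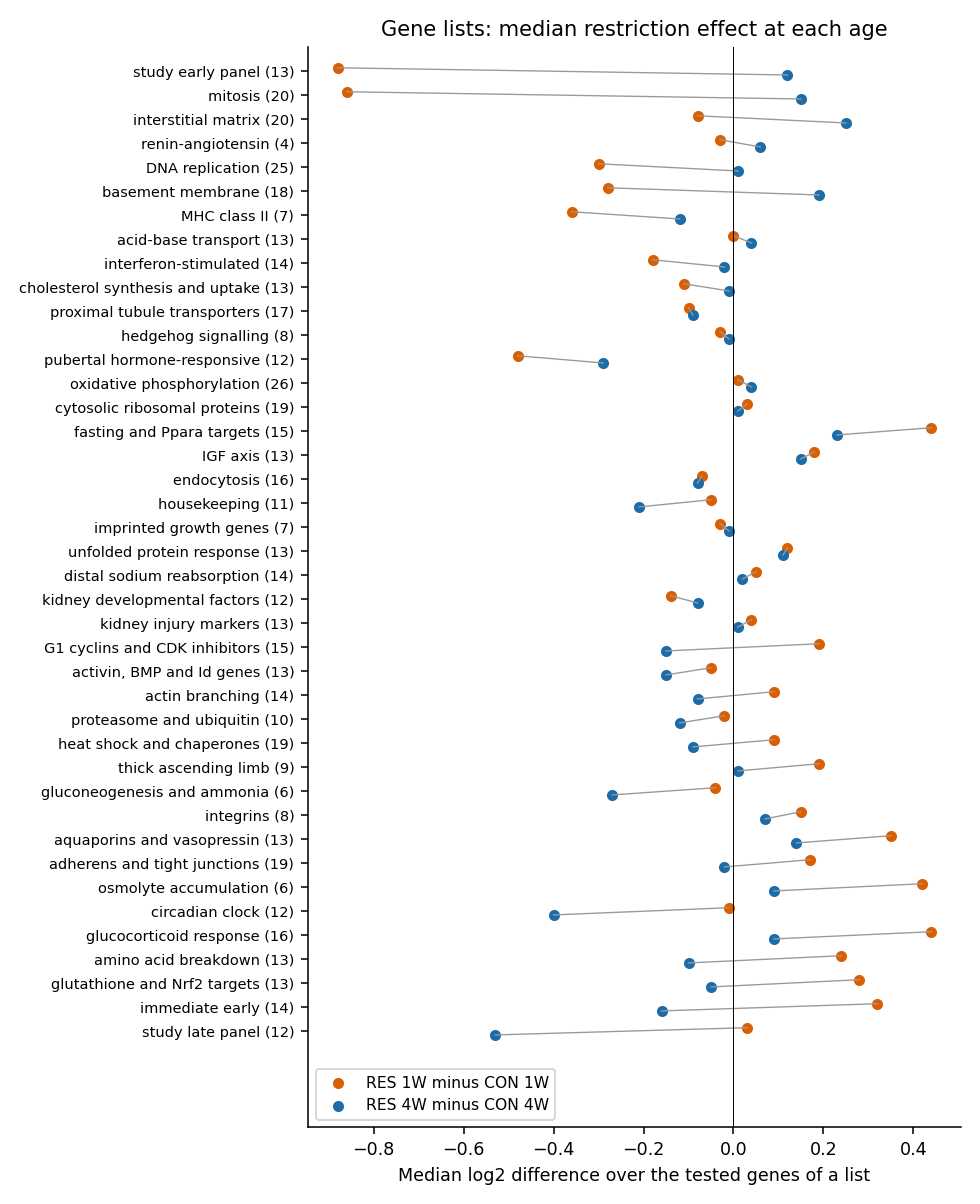
Median log2 difference over the tested genes of each gene list (number tested in brackets) in the younger mice (orange, RES 1W minus CON 1W) and the older mice (blue, RES 4W minus CON 4W), ordered by the median difference of differences. The study's cell cycle panel and the mitosis list are apart from the rest, with medians of -0.88 and -0.86 in the younger mice and 0.12 and 0.15 in the older mice.

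Across the 41 lists plotted, calls in the difference of differences were few outside mitosis and the study's early panel. The largest counts otherwise were the 3 lower calls in amino acid breakdown and 2 higher calls each in DNA replication and interstitial matrix. For oxidative phosphorylation (26 tested) and cytosolic ribosomal proteins (19 tested) 0 were called, with medians of 0.02 and 0.01. With RES 4W replicate 1 left out there were 2 higher and 2 lower in oxidative phosphorylation, and 1 higher and 2 lower among the ribosomal proteins. Of all genes 5.7% were called higher and 7.52% lower in that fit. For the osmolyte accumulation list 0 of 6 were called with every array or without that one: Slc6a12, the betaine transporter that answers to hypertonicity, rose by 1.73 in RES 1W and 1.32 in RES 4W, with a difference of -0.42 (adjusted p = 0.18).

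Markers of other cell types were set beside these results. Of 10 macrophage markers tested, 0 were called with every array (median 0.38), and 5 were called higher and 0 lower without RES 4W replicate 1, where 5.7% and 7.52% of all genes were. Their summed linear level was 597 to 648 in RES 1W, against 714 to 810 in CON 1W, and 754 to 964 in RES 4W, against 736 to 893 in CON 4W. Of 15 endothelial markers 0 were called (median 0.18), against 2 higher and 1 lower without that array, and of 10 fibroblast and pericyte markers 0 were called (median 0.11), against 1 higher. The complement genes C1qb and C1qc, which mark tissue macrophages, were lower in all RES 1W than in all CON 1W arrays, although neither passed the test there (-0.37 and -0.39). The 7 MHC class II genes tested, which antigen-presenting cells carry, summed to 1500 to 1860 in RES 1W, against 2280 to 2810 in CON 1W, and to 3670 to 4230 in RES 4W, against 4040 to 5070 in CON 4W. For 4 lymphocyte markers tested of 11 the sums were 75.2 to 110 in RES 1W, against 138 to 159 in CON 1W, and 138 to 299 in RES 4W, against 164 to 199 in CON 4W. The macrophage, MHC class II and lymphocyte sums were thus apart in the younger mice. For 4 adipocyte markers tested of 10 they were 40.1 to 93.7 in RES 1W, against 57.8 to 572 in CON 1W, and 121 to 269 in RES 4W, against 190 to 390 in CON 4W, with median log2 differences of -1.03 and -0.94 at the 2 ages, and RES 4W replicate 1 had the highest lymphocyte and adipocyte sums of its group. With every array 0 genes of the MHC class II, lymphocyte and adipocyte lists were called in the difference of differences. The part of these cells in the results above was not tested.

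Without RES 4W replicate 1 the named genes called with every array kept their sign and stayed called. The negative differences were then -1.9 for Hpd, -1.94 for Noct, -1.01 for Gldc, -1.55 for Gadd45g, -1.64 for Gsta2, -1.66 for Ddit4, -0.88 for Usb1, -0.84 for Ghr, -1.86 for Scd1 and -1.15 for Tob2. The positive ones were 1.78 for H2ac15, 1.43 for Mdk, 1.31 for G6pc3, 1.19 for Fn1, 1.15 for Cyp7b1, 0.98 for Mcm5, 0.81 for Slc22a12 and 0.75 for Col4a1.

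The number of calls hung on single arrays throughout. Leaving out RES 4W replicate 1 gave 2851 calls, and leaving out any other array gave between 16 and 143, most of which had also been called with every array. Birc5, Cdc20, Cdkn3, Ddit4, Pbk and Prc1 were called in all 15 of these fits, Noct in 13 and Hpd in 12. The others were less firm: Gsta2 was called in 8, H2ac15 and Eif2s3y in 6, Cyp7b1, Slc22a12, G6pc3, Tob2, Rrm2 and Bub1b in 5, Gldc, Plk1, Scd1, Pck1, Gadd45g and Usb1 in 4, Aqp1, Mcm5, Mdk and Col5a1 in 3, Col4a1, Fn1, Ghr and Rnf114 in 2, and Slc30a6 in 1, while every one kept its sign throughout. The array columns of the deposited table come in sets of 6 neighbours that hold unequal mixes of the groups, and a fit with these sets as a block, chosen after the order was seen, called 15 probes, 12 of them among the 111. Whether the sets are batches is not stated in the sources used here.

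**Figure D5:**
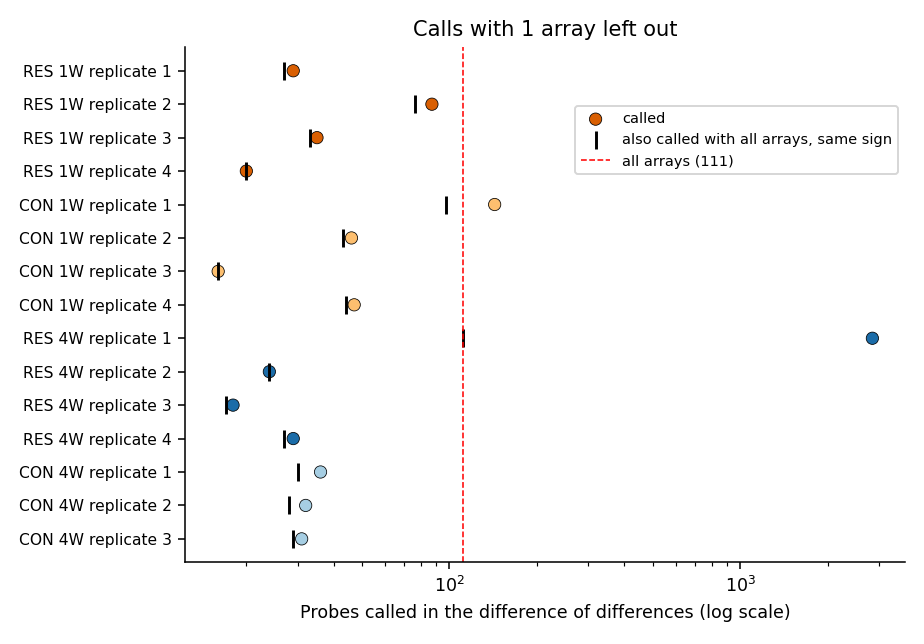
Number of probes called in the difference of differences (horizontal axis, log scale) when the array named on the vertical axis was left out; black ticks mark those also called with every array in the same direction, and the dashed line the 111 calls with every array. Leaving out RES 4W replicate 1 gave 2851 calls, and leaving out CON 1W replicate 3 gave the fewest, 16.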

How the data were processed

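Kidney RNA of 15 mice was measured on Illumina MouseWG-6 arrays. The authors deposited, per probe and array, intensity values with a detection p-value and, separately, log2 values after normalization in GenomeStudio 1.0.2 (per the labels and methods). Of the deposited intensity values 34.9% were at or below 0, and of the authors' log2 values 52.2% were missing, all under an intensity of 5. The intensities were corrected with normexp (offset 16), quantile normalized and taken to log2 (neqc, limma 3.58.1 in R 4.3.3). Group means were fitted in limma over all 15 arrays, with two-sided tests and Benjamini-Hochberg adjustment across the 19027 probes. All p-values are therefore those of limma, and they measure the spread between arrays. The labels number the replicates without stating litters or cages. No arrays had identical values.

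Of the tested probes 16351 had 1 gene symbol, 7 several and 2669 none, and 16332 matched a RefSeq entry by gene ID. Genes numbered 10838, of which 3869 had more than 1 tested probe. Members and gene lists were chosen with earlier results of these data known. The genes named are the opposite ones, the 8 with the largest difference in each other class, the 2 with the smallest adjusted p of each list, the 5 largest in each direction without RES 4W replicate 1, and the called members of both study panels. Other genes were named after their values were seen. The fit was tested on simulated data with independent noise for each array. The simulation held no odd array and no column sets, so it has no bearing on how those moved the calls. The number of arrays limits the precision, with a median standard error of 0.2 for the difference of differences.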

Additional observations from a re-analysis of the deposited data

Results flagged for a closer look

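Each gene below was picked out because the test of the difference between the ages passed. Among cell division genes the differences of differences were 2.54 for Pbk, 2.12 for Prc1, 2.07 for Cdc20, 2.03 for Birc5, 1.68 for H2ac15, 1.65 for Cdkn3, 1.46 for Plk1, 1.09 for Bub1b, 1.07 for Rrm2 and 1.06 for Mcm5. Other positive differences were 1.54 for Rnf114, 1.3 for Mdk, 1.24 for Fn1, 1.2 for G6pc3, 1.18 for Cyp7b1, 0.81 for Slc22a12, 0.7 for Col4a1 and 0.66 for Col5a1. The negative ones were -2.01 for Hpd, -1.9 for Noct, -1.87 for Ddit4, -1.68 for Gadd45g, -1.63 for Scd1, -1.49 for Gsta2, -1.44 for Pck1, -1.31 for Slc30a6, -1.24 for Tob2, -1.21 for Eif2s3y, -1.06 for Gldc, -0.81 for Aqp1, -0.8 for Usb1 and -0.76 for Ghr.

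A sample far from the others of its group was found 17 times in the 273 groups of 4 arrays looked at for 91 named genes, where chance alone flags about 1 in 20 groups. That share is no yardstick here, since the groups of all genes come from the same 12 arrays and 59 of the 91 genes were named because they passed without RES 4W replicate 1. Of the 17, 12 were RES 4W replicate 1: log2 levels of 12.91 for Aqp1, 8.83 for Atf4, 8.49 for Cdk4, 8.93 for Ctnnb1, 8.16 for G6pc3, 8.64 for Itgb5, 9.57 for Krt8, 8.0 for Msmo1, 5.02 for Oasl2, 7.26 for Pck1, 6.35 for Rnf114 and 13.36 for Rpl3. A further 3 were in RES 1W, namely Calr in replicate 4 (7.76), Mdk in replicate 3 (7.6) and Psmd11 in replicate 3 (7.25). The remaining 2 were CON 1W replicate 1 for G6pc3 (7.25) and Tcf21 (8.08).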

How the results depend on the processing

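With 111 probes called, 60 early, 46 late and 3 opposite, the direction of the 32 called genes named here was kept in every setting in which they were tested except 1: Ghr read as the mean of its probes gave 0.09. The calls depended on the settings. Late responses numbered 26 without normexp. An offset of 50 called 268 probes (106 early, 133 late, 9 opposite), detection in the stricter filter (p under 0.01) 288 (101, 147 and 7), a trended and robust prior 309 (108, 167 and 8), and array weights 2878 (240, 2315 and 47). Fewer were called from the authors' processed values, 53 (31 early, 18 late), with no filter on detection, 27 (20, 6 and 1 opposite), and in the methods' ANOVA, 23 (17, 5 and 1). The sets of 6 columns as a block, chosen after seeing the data, gave 15 (11, 4 and 0), with 21 falls in RES 1W too dim in CON 4W in place of 66.

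Leaving out 1 array gave 16 to 2851 called probes, 12 to 212 early, 2 to 2305 late, 0 to 63 opposite and 43 to 91 falls too dim. The highest of each came without RES 4W replicate 1, and without any other array the ranges were 16 to 143, 12 to 75, 2 to 51, 0 to 4 and 43 to 63. For RES 1W against CON 1W, with 534 called, the methods' t-test found 2815 probes unadjusted and 115 after Benjamini-Hochberg. For RES 4W against CON 4W, with 1235 called, it found 2994 and 0, and limma on those 7 arrays alone found 3. A limma fit with the replicate number as a block called 89 probes, 5 of them opposite, 66 shared with the 111. The numbers were not taken to pair the mice: of 21 same-numbered pairs 1 correlated above 0.1. The cause of these shifts was not tested. Array type and signal limit what can be seen: a beadchip block could not be fitted, since the headers name no beadchip, and falls below the floor are not measurable.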

Other observations

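Motifs searched in the same RefSeq promoter windows for 3 other lists gave these shares, on both strands. The heat shock element GAANNTTC was found in 9 of 16 windows of the chaperone list (56.2%, beside 7.95% of all windows). The E-box CACGTG was found in 4 of 10 windows of the clock list (40%, beside 7.24%). The CArG box was found in 1 of 11 windows of the immediate early list (9.09%, beside 1.57%). In the difference of differences 0 genes of these 3 lists were called with every array.

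The immediate early genes, which answer to growth and stress signals within minutes, had the most negative median of the textbook lists, -0.50 over 14 tested genes, and without RES 4W replicate 1 there were 1 higher and 5 lower among them, where 5.7% and 7.52% of all genes were. Genes of glutathione metabolism and Nrf2 targets had a median of -0.45 over 13 tested, with Gsta2 the 1 called, beside 0.258% of all genes called lower. For 12 genes known to respond to pubertal hormones the median was 0.05, with Cyp7b1 the 1 called, beside 0.314% of all genes called higher, and 5 of the 12 were lower in RES 1W than in CON 1W, beside 1.61% of all genes.

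Probes of the same gene disagreed in the falls as well. For Dio1, which activates thyroid hormone, the called late probe gave -1.22 and the brightest probe 0.73 (adjusted p = 0.16). For Kyat3, a kynurenine aminotransferase, the values were -1.02 and 0.24. Both were chosen after their values were seen.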
